A study of Mus musculus with 2 samples.

Results

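A population of hepatic γδ T cells was described that had at least 2 transcripts in sum of Cd28, Socs2 and Cd40lg, most often of Cd28, and no detected transcript of the NK adaptor Tyrobp, of the NK receptor gene Ncr1 or of the cytokine gene Il4. The transcripts of single γδ T cells were counted in 2 libraries, 1 prepared from the liver and the other from the thymus of untreated wild type C57BL/6J mice aged 8 weeks, sorted as CD3ε- and TCRγδ-positive cells. Cells of several mice were pooled per tissue, and barcodes are not tied to a mouse. The deposited values are unique molecular identifiers (UMIs), counts of distinct captured RNA molecules per gene and cell barcode.

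Members were chosen from their own UMIs. Of 8658 hepatic barcodes, 8075 were kept because they had 800 to 4000 detected genes and at most 6% mitochondrial UMIs. A kept cell was a member when Cd28, Socs2 and Cd40lg gave at least 2 UMIs together and 5 upper limits were met. These were no UMI of Tyrobp or Ncr1, none of Il4, at most 2 of the precursor genes Dapl1, Sox4, Tcf7, Lef1 and Ccr7, at most 2 of the interleukin-17 (IL-17) program genes Il17a, Tmem176a, Tmem176b and Ccr6, and at most 3 of the myeloid genes Lyz2, C1qa, C1qb and C1qc. The rule took 967 cells, 11.98% of the kept hepatic cells (exact binomial 95% interval 11.3% to 12.7%) and 34.9% of the 2772 cells with at least 2 UMIs of the 3 genes. Every interval given here covers counting error only. With 1 library per tissue there is no replicate, so no difference was tested, and since the members were picked by their transcripts all contrasts with other cells are descriptions.

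γδ T cells leave the thymus with much of their effector program set and lodge in barrier tissues and in the liver, where subsets that make interferon-γ (IFN-γ) or IL-17 are known. CD28 is the costimulatory receptor that T cells engage together with the antigen receptor. SOCS2 is a suppressor of cytokine signalling that is itself induced by cytokines acting through STAT5, and CD40 ligand is the TNF-family protein through which T cells license B cells and antigen-presenting cells. In the mouse (GRCm38, GENCODE vM21), Cd28 lies on chromosome 1 (60716800 to 60773359, plus strand), Socs2 on chromosome 10 (95385362 to 95417180, minus strand) and Cd40lg on chromosome X (57212143 to 57224042, plus strand).

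The other kept cells were sorted into groups by the same rule. Low-sum cells met all 5 upper limits but had fewer than 2 UMIs of the 3 genes, and there were 880. Cells past the Tyrobp and Ncr1 limit alone numbered 4454, those past the IL-17 limit alone 576, those past the precursor limit alone 295 and those past the Il4 limit alone 191. A further 712 cells were past several limits, and no cell was past the myeloid limit alone. Many cells past 1 limit alone were past it by a single UMI. These were 904 of the Tyrobp/Ncr1 cells, 165 of the Il4 cells, 102 of the IL-17 program cells and 69 of the precursor-gene cells. Depth was similar, with a median of 2673 UMIs and 1110 genes per member against 2751 UMIs and 1133 genes per other kept cell. The 2 libraries shared 60 barcode sequences, 9 of them carried by members.

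The 3 defining genes were unevenly represented among the members, and Cd28 carried most of the definition. A Cd28 UMI was found in 90.9% of members, a Socs2 UMI in 49.3% and a Cd40lg UMI in 29.8%. Of the 3 genes' UMIs in members, 68.6% came from Cd28, 22.4% from Socs2 and 8.97% from Cd40lg. Cd28 was the only one of the 3 detected in 352 members, Socs2 in 41 and Cd40lg in 13, while 116 members had UMIs of all 3. The median 3-gene sum was 4 UMIs and the largest 16. Just inside the limit lay 241 members with a sum of 2, and just outside it 321 low-sum cells with a sum of 1.

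The level of a gene was taken as UMIs summed over the cells of a group per 1000000 UMIs of that group (CPM). The rule fixed part of this order for Cd28, Socs2 and Cd40lg. Cd28 stood at 1070 CPM in members (exact Poisson 95% interval 1032 to 1110), at 937 CPM (859 to 1020) in cells past only the Il4 limit and at 767 CPM (711 to 827) in cells past only the precursor limit. It was at 253 CPM (244 to 262) in Tyrobp/Ncr1 cells, 177 CPM (158 to 198) in IL-17 program cells and 91.6 CPM (79.9 to 105) in low-sum cells. Socs2 was at 350 CPM (328 to 373) in members and at 495 CPM (439 to 556) in Il4 cells, where the positive sum had not been required. In precursor-gene cells, which resembled members in Cd28, Socs2 was at only 25.7 CPM (16.3 to 38.5). Cd40lg was at 140 CPM (126 to 155) in members and 132 CPM (104 to 166) in Il4 cells, intervals that overlapped, and at 12.3 CPM (6.13 to 22.0) in precursor-gene cells. At least 2 UMIs of the 3 genes were present in 86.4% of the Il4 cells, 56.3% of the precursor-gene cells, 23.4% of the Tyrobp/Ncr1 cells and 19.6% of the IL-17 program cells.

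**Figure D1:**
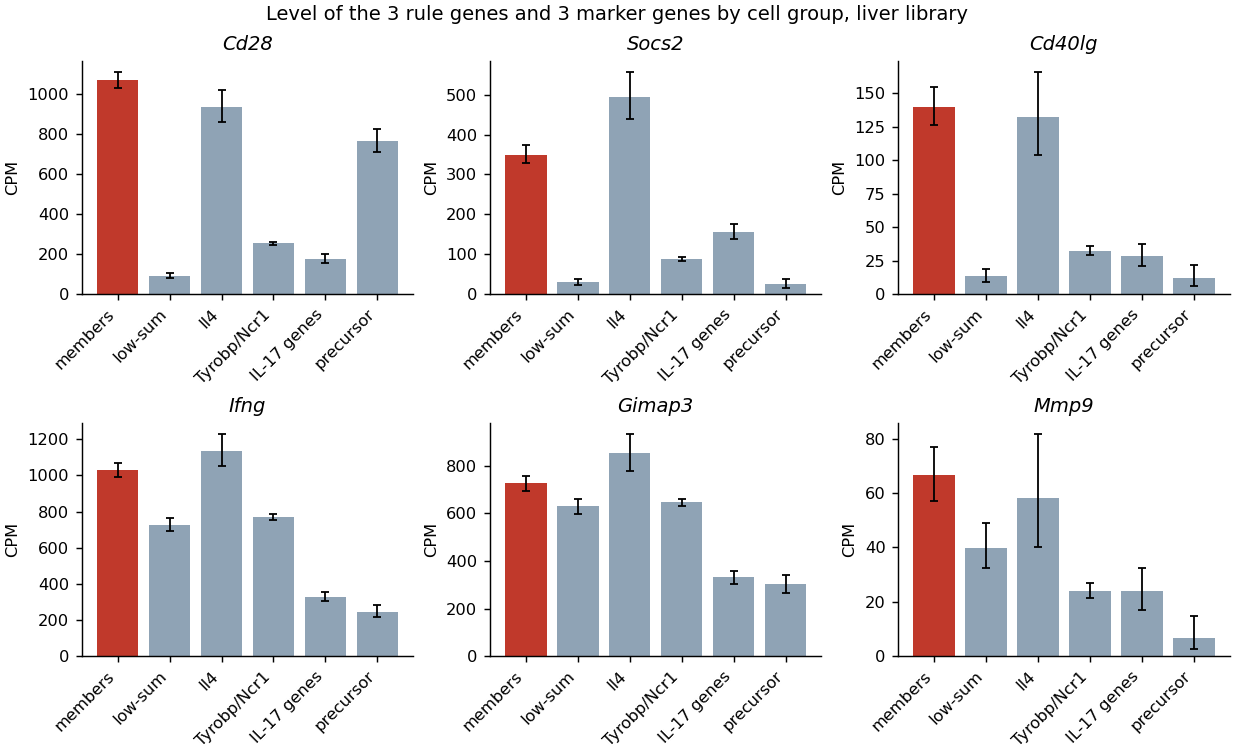
Level in CPM (vertical axes, each starting at 0) of Cd28, Socs2, Cd40lg, Ifng, Gimap3 and Mmp9 in the hepatic members (red) and in low-sum cells and cells past only 1 of 4 upper limits (grey). Error bars are exact Poisson 95% intervals, counting error only. Members and Il4 cells stand above the other groups for Socs2, Cd40lg, Ifng and Gimap3, whereas Cd28 is also at 767 CPM in precursor-gene cells.

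Of the markers given for these cells, Ifng, Mmp9 and Gimap3 were each higher in members than in all other kept cells combined. In Il4 cells Ifng (1136 CPM) and Gimap3 (853 CPM) were higher than in members, and Mmp9 (58.1 CPM, 40.0 to 81.7) had an interval that overlapped that of members. Ifng, the gene for IFN-γ, was at 1029 CPM (991 to 1068) in members and 681 CPM (670 to 692) in other kept cells, a ratio of 1.51 (exact conditional binomial 95% interval 1.45 to 1.57). After thinning to 1500 UMIs, 65.8% of members (62.7% to 68.8%) had an Ifng UMI, and 78.0% had one before thinning. The corresponding thinned share was 71.2% in Il4 cells, 51.0% in low-sum cells, 53.6% in Tyrobp/Ncr1 cells, 23.8% in IL-17 program cells and 20.7% in precursor-gene cells. The IL-17 program cells, set beside the members as a low reference although Ifng need not be absent from them, had a median of 2753.5 UMIs and an unthinned share of 32.8%. Gimap3, a GTPase of the immunity-associated family that supports lymphocyte survival, was at 726 CPM in members and 585 CPM in other kept cells (ratio 1.24, 1.18 to 1.30), and its thinned share was 64.4% in members and 74.3% in Il4 cells. Mmp9, which encodes the gelatinase MMP-9, was at 66.5 CPM (57.2 to 76.9) in members and 26.1 CPM (24.0 to 28.4) in other kept cells, a ratio of 2.55 (2.14 to 3.02). An Mmp9 UMI was seen in 14.2% of members before thinning and 8.997% after it, so most members showed none at this depth. In Il4 cells the shares were 13.1% and 8.38%.

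The label of T cells was checked against the genes of the CD3 complex. Cd3g was detected in 96.1% of members and stood at 1398 CPM, with Cd3d at 1171 CPM and Cd3e at 735 CPM. The antigen receptor genes themselves were not analysed here, so that the γδ identity rests on the sort. Cd4 gave 7 UMIs over all members (2.57 CPM, 1.03 to 5.30) and Cd8b1 23 UMIs (8.45 CPM, 5.36 to 12.7). Cd8a, the chain that some innate-like lymphocytes carry as a homodimer, was at 45.9 CPM in members and 206 CPM in other kept cells, 4.48-fold lower (3.75 to 5.39).

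Few genes were more than 2-fold higher in members, and the costimulatory receptor gene Icos and the surface antigen genes Izumo1r and Ly6a were among them. Among 4609 genes with at least 20 CPM over all kept hepatic cells, leaving out the 19 genes of the rule, mitochondrial and ribosomal-protein genes, 8 (0.174%) were at least 2-fold higher in members than in other kept cells and 73 (1.58%) at least 2-fold lower. The median log2 ratio over all 4609 was -0.015. The rule used this contrast, so the counts are not evidence about the members. Highest by ratio was Izumo1r, which encodes the folate receptor family member FR4, at 54.7 CPM in members and 20.2 CPM in other cells (2.71-fold, 2.24 to 3.27). Ly6a, the gene of the surface antigen Sca-1, was at 224 CPM (207 to 243) against 84.6 CPM (80.8 to 88.6), 2.65-fold. Icos, a costimulatory receptor related to CD28, was at 131 CPM against 61.0 CPM, 2.14-fold (1.90 to 2.41). The other genes past 2-fold besides Mmp9 were Cd6, a T cell surface receptor, Sh2d1a, which encodes the adaptor SAP of the SLAM receptors, Gpc1, which encodes glypican-1, and Rcbtb2, with ratios of 2.12, 2.04, 2.02 and 2.02. Podnl1, Slfn1, Ly6c2, Serpina3f, Gramd3, Dkkl1 and Ldhb followed, with ratios from 1.99 to 1.86. Of these, Ly6c2 was the most abundant at 667 CPM in members against 352 CPM elsewhere.

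Icos and Ly6a were not highest in the members when the other groups were taken one by one. Icos was at 226 CPM (188 to 268) in Il4 cells and 190 CPM (170 to 211) in IL-17 program cells, above the 131 CPM of members, but at 29.1 CPM in Tyrobp/Ncr1 cells. Ly6a was at 423 CPM in Il4 cells, 174 CPM in IL-17 program cells and 43.2 CPM in Tyrobp/Ncr1 cells. Izumo1r was at 82.8 CPM (60.8 to 110) in Il4 cells, 44.7 CPM in precursor-gene cells and 13.7 CPM in Tyrobp/Ncr1 cells. The last group held 4454 of the 7108 other kept cells.

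**Figure D2:**
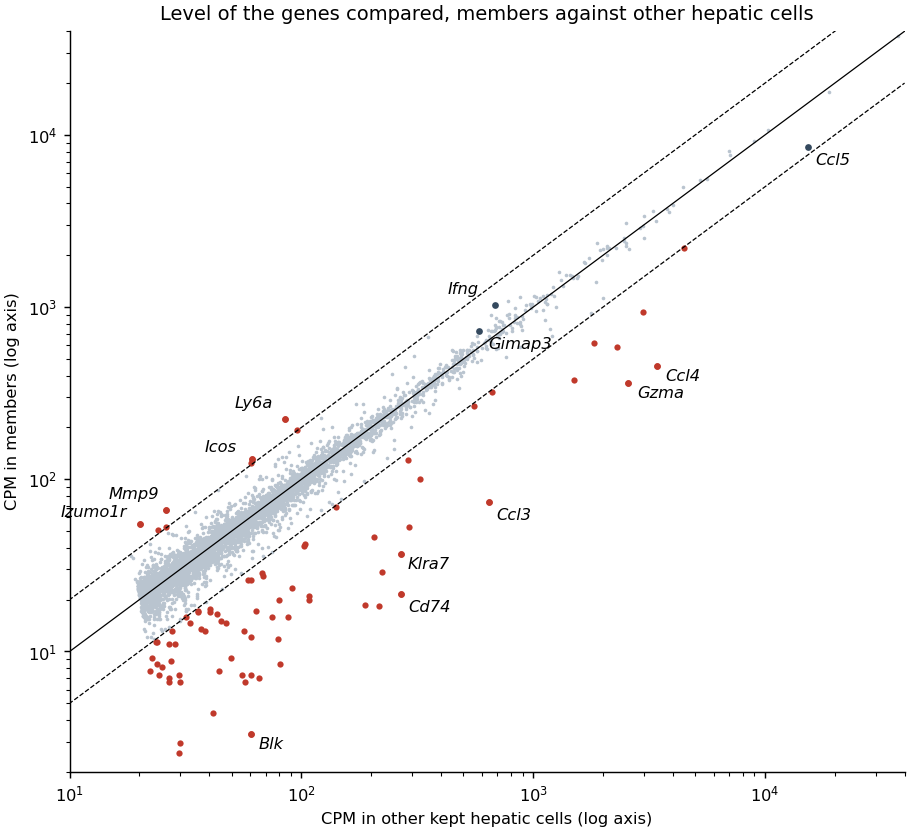
Level in CPM of each of the 4609 genes compared, in members (vertical, log axis) and in other kept hepatic cells (horizontal, log axis). The solid line marks equal levels, dashed lines 2-fold differences, and genes past them are red; 73 lie below the lower line and 8 above the upper one.

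More genes were lower than higher in members. Chemokine genes were among the most different. Ccl3 was at 73.5 CPM in members and 644 CPM in other cells (8.77-fold lower, 7.62 to 10.1) and Ccl4 at 454 CPM against 3412 CPM (7.52-fold lower, 7.11 to 7.96). Ccl5, the most abundant chemokine transcript, was at 8484 CPM against 15333 CPM, 1.81-fold lower. Of 5 chemokine genes compared, 3 were past 2-fold lower (Ccl3, Ccl4 and Cxcl10) and none past 2-fold higher, with a median log2 ratio of -1.24.

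Of the receptors of NK cells, some were lower in members and others were not. Of 19 such genes compared, 8 were past 2-fold lower and none past 2-fold higher, and the median log2 ratio was -0.92. The Ly49 receptor genes Klra9 (18.7 CPM against 188), Klra7 (36.7 against 268) and Klra5 (52.9 against 291) were 5.50- to 10.0-fold lower. Klra genes are close copies of each other, and how reads were shared between them is not given in the sources used here. Fcer1g, a signalling adaptor like Tyrobp, was at 377 CPM against 1498 CPM in other kept cells, most of which were Tyrobp/Ncr1 cells. Low-sum cells, like members, had no Tyrobp or Ncr1 UMI. Against them 5 of the 19 genes were past 2-fold lower (Klra3, Klra6, Klra7, Klra9 and Cd244), and Fcer1g was not. Over all genes compared, 38 of 4609 (0.824%) were past 2-fold lower in that contrast. Klrk1, the gene of NKG2D, was at 741 CPM in members and 637 CPM in other cells, and Klrc1, the gene of NKG2A, at 676 CPM and 570 CPM. Their relatives were lower, with Klrd1, the gene of CD94, at 746 CPM against 1177 CPM, Klrc2 at 201 against 296 and Klre1 at 321 against 663. Klrb1c, the gene of NK1.1, was at 252 CPM against 343 CPM.

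Of 9 cytotoxic granule genes compared none was higher, and Gzma and Gzmb were past 2-fold lower (median log2 ratio of the list -0.26). The granzyme gene Gzma was at 362 CPM in members against 2561 CPM, and Gzmb at 934 CPM against 2962 CPM. Nkg7 was at 2162 CPM against 2584 CPM. Among galectin, S100 and annexin genes, which mark activated and migratory lymphocytes, 6 of 10 were past 2-fold lower, with a median of -1.11: Lgals3, S100a4, S100a6, Anxa2, Capg and Vim. S100a6 was at 621 CPM against 1822 CPM and Vim, the intermediate filament gene, at 99.9 CPM against 326 CPM. Anxa1 was the 1 member of the list with a ratio above 1, at 32.3 CPM against 23.5 CPM. Fewer of these genes were past 2-fold lower against low-sum cells, namely Gzma of the granule genes, and Lgals3 and Vim of the latter list. The share over all genes compared was 0.824% in that contrast.

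The IFN-γ axis was otherwise close to the rest of the hepatic cells. Of 12 of its genes compared, none was past 2-fold higher (median log2 ratio 0.10). Irf8, an interferon regulatory factor, was past 2-fold lower at 27.6 CPM against 68.4 CPM. None of the 12 was past 2-fold against low-sum cells, or against Tyrobp/Ncr1 cells with at least 2 UMIs of Cd28, Socs2 and Cd40lg. Tbx21, the gene of the transcription factor T-bet, was at 73.1 CPM in members and 75.9 CPM elsewhere (ratio 0.96, 0.83 to 1.12). The compared cytokine receptor genes Il12rb1, Il12rb2 and Il18r1 had log2 ratios of -0.026, 0.022 and 0.46. The IL-18 receptor subunit gene Il18rap was at 34.5 CPM against 18.0 CPM, but it was below the 20 CPM minimum and not among the 12. All 6 chemokine receptor genes compared had ratios above 1 without any past 2-fold (median 0.39), with Cxcr3 at 273 CPM against 184 CPM, Ccr2 at 136 against 85.7 and Cxcr6 at 563 against 485. All 8 GIMAP genes had ratios above 1, again with none past 2-fold (median 0.15).

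Genes that act on the same pathways as CD28, SOCS2 and CD40 ligand were mostly alike in members and other cells. Of 15 SOCS and common γ chain genes none was past 2-fold in either direction (median 0.016). Socs3, a relative of Socs2, was at 197 CPM against 124 CPM (1.59-fold), while Cish, another STAT5-induced member of the family, was at 76.1 CPM against 90.1 CPM. Of 13 costimulation and TNF superfamily genes, Icos was past 2-fold higher (median -0.088). Tnfrsf9, the gene of 4-1BB, was past 2-fold lower at 16.5 CPM against 43.3 CPM. Against low-sum cells Icos alone of the 13 was past 2-fold. Of 8 genes of an NKT-like program, Icos and Sh2d1a were past 2-fold higher and none lower (median 0.32). The type-2 cytokine genes Il5 and Il13 of that list gave no UMI in members, which allows up to 1.10 CPM at 3 UMIs.

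In the T cell identity list Cd6 was the 1 of 11 genes past 2-fold higher, and none was past 2-fold lower (median 0.036). Of the 11, 6 had ratios above 1. Cd3g and Cd3e were lower in members, with log2 ratios of -0.41 and -0.29. Of 9 genes of the IL-17 program outside the rule, Blk, Cd163l1, 5830411N06Rik and Aqp3 were past 2-fold lower and Icos higher, with a median of 0.31. Blk, a Src-family kinase of B cells and IL-17-producing γδ T cells, was at 3.31 CPM in members against 60.6 CPM. Il17a itself was limited by the rule. None of 7 precursor and naive-like genes (median 0.035), 6 recirculation genes (-0.052), 15 AP-1, Egr and Nr4a genes (-0.048), 10 heat shock genes (0.13), 5 cell cycle genes (-0.059) or 7 interferon-induced genes (0.22) was past 2-fold. Rgs1, a regulator of G-protein signalling, was the 1 of 10 tissue residence genes past 2-fold lower, at 2212 CPM against 4466 CPM (list median -0.19). None of the 10 was past 2-fold against low-sum cells. The checkpoint gene Lag3 was the 1 of 3 compared in its list past 2-fold lower, at 7.35 CPM against 60.5 CPM in other kept cells (median -0.98). Of 4 metalloproteinase and inhibitor genes Mmp9 was past 2-fold higher (median -0.049). Of the αβ coreceptor genes Cd8a alone was compared, with a log2 ratio of -2.16.

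The low-sum cells met the same 5 upper limits as the members and by rule differed in the 3-gene sum alone, so they are the closest group by rule. Their spread over the cell clusters described below was different from that of members. Against them, 11 genes (0.239% of 4609) were at least 2-fold higher in members and 38 (0.824%) at least 2-fold lower. Icos was at 131 CPM in members and 47.5 CPM in low-sum cells, 2.75-fold (2.22 to 3.43). Ly6a was 2.10-fold and Izumo1r 2.10-fold higher. Ifitm2, an interferon-induced membrane protein gene, was highest by ratio at 26.8 CPM against 7.15 CPM (3.75-fold, 2.19 to 6.79), yet it stood at 38.8 CPM over all other kept cells. Hbegf, a growth factor gene of the EGF family, was at 34.9 CPM against 12.6 CPM, and Cd81, a tetraspanin gene, at 31.2 against 13.5 CPM. Podnl1, Serpina3f, Klrb1b and Rcbtb2 were 2.23-, 2.26-, 2.17- and 2.03-fold higher. Ifng was at 1029 CPM against 726 CPM, 1.42-fold (1.334 to 1.505). Against all other kept cells the log2 ratios of Hbegf, Cd81 and Klrb1b were only 0.11, 0.45 and 0.15.

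Of the genes lower in members than in low-sum cells, several are also expressed by B cells. Cd74 was at 21.7 CPM in members and 227 CPM in low-sum cells (10.5-fold lower), the MHC class II genes H2-Aa, H2-Ab1 and H2-Eb1 were 5.00- to 5.40-fold lower, Blk was 10.2-fold and Cd79b 4.82-fold lower. The B cell markers summed to 9.19 CPM in members, 76.9 CPM in low-sum cells and 37.0 CPM in all other kept cells, with Pax5 at 0 in members. Their part in these ratios was not tested. Klra7 was at 36.7 CPM against 306 CPM and Klra6 at 12.1 CPM against 77.4 CPM, and 5830411N06Rik and Klra9 were 8.72- and 4.87-fold lower. Cd8a was at 45.9 CPM against 202 CPM (184 to 221). Blk and 5830411N06Rik were also leading genes of cluster 4, described below, in which 9.45% of cells were low-sum cells and 0.766% members.

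Markers of other cell types were summed by list. The 13 Kupffer and myeloid markers summed to 99.6 CPM in members and 544 CPM in other kept cells, and Adgre1, the gene of F4/80, was at 0. Of the 5 compared, Apoe and 3 class II genes were past 2-fold lower (median log2 ratio -3.11). Apoe was at 29.0 CPM in members, 26.9 CPM in low-sum cells and 223 CPM in other kept cells, which included the cells past the myeloid limit. Also lower in members than in other kept cells were Cxcl2, Cd200r2, Napsa and Itgax, 11.7-, 11.5-, 9.46- and 7.51-fold. The 9 hepatocyte markers summed to 22.0 CPM in members, 15.8 CPM in other kept cells and 4.20 CPM in low-sum cells, and were thus 5.24-fold higher in members than in the last (2.66 to 11.5). The 7 endothelial markers summed to 17.3 CPM in members and 16.9 CPM in others, with Kdr, Stab2, Clec4g and Ptprb at 0 in members, and the 5 erythroid markers to 21.3 CPM and 30.03 CPM, with Alas2 at 0. The NK and ILC1 markers other than Tyrobp and Ncr1 summed to 1222 CPM in members and 4151 CPM in others, and Itga2 was at 0 in members. Of 3 compared, Fcer1g and Cd7 were past 2-fold lower (median -1.98), as was Cd79b, the 1 B cell marker compared (-1.95). The part of these transcripts in the ratios was not tested.

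The levels of several genes went with the 3-gene sum on both sides of the limit. Ifng was at 674 CPM in cells with a sum of 0 and 811 CPM in cells with a sum of 1, then at 971, 1040 and 1052 CPM in members with a sum of 2, 3 and at least 4. Icos was at 34.1, 69.1, 60.1, 109 and 174 CPM along the same steps, and Ly6a at 83.2, 145, 215, 194 and 241 CPM. In the opposite direction, Ccl5 was at 18352 CPM at a sum of 0, 12818 at 1, 9760 at 2, 9863 at 3 and 7289 at 4 or more. Cd8a was at 249, 126, 71.8, 59.2 and 28.0 CPM. For both Ccl5 and Cd8a the cells just outside the limit lay between the cells with a sum of 0 and the members. Low-sum cells and members were also spread differently over the cell clusters described below. The sum and the kind of cell cannot be told apart here.

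**Figure D3:**
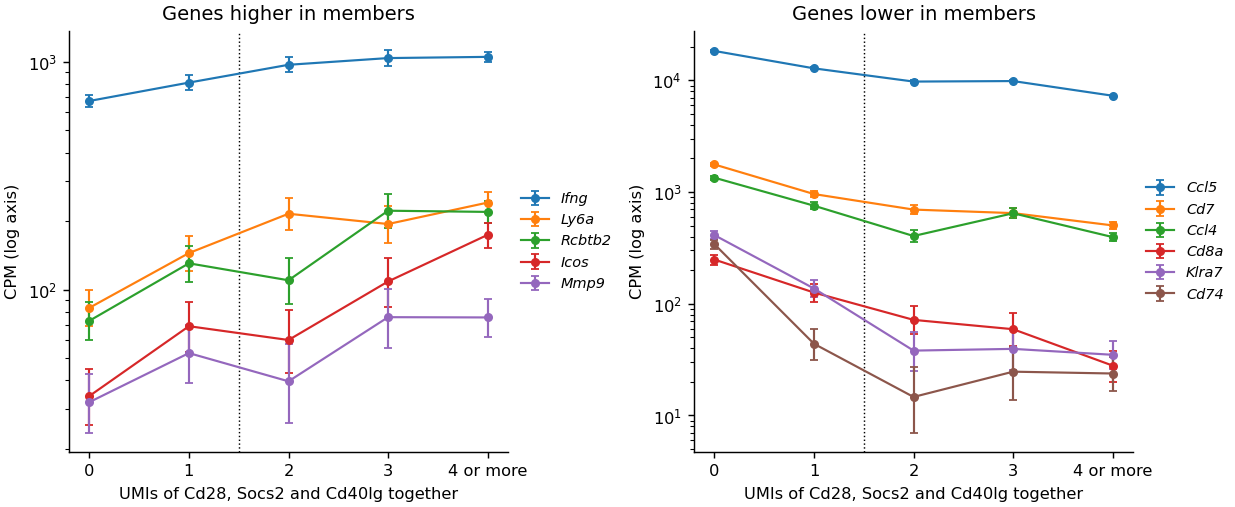
Level in CPM (log axes) of 5 genes higher and 6 genes lower in members, in hepatic cells that met the 5 upper limits, by the summed UMIs of Cd28, Socs2 and Cd40lg. Cells left of the dotted line are low-sum cells and those right of it members; error bars are exact Poisson 95% intervals. Icos goes from 34.1 CPM at a sum of 0 to 174 CPM at 4 or more, and Cd8a from 249 to 28.0 CPM.

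Members were also set beside the Tyrobp/Ncr1 cells that had at least 2 UMIs of Cd28, Socs2 and Cd40lg, of which there were 1043. Against these, 4 genes (0.0868% of 4609) were at least 2-fold higher in members and 30 (0.651%) at least 2-fold lower. Of the 8 genes at least 2-fold higher than in all other kept cells, Ly6a alone was so here. Izumo1r, Mmp9, Icos, Cd6, Sh2d1a, Gpc1 and Rcbtb2 were not. Ly6a was at 224 CPM in members against 96.7 CPM (2.32-fold, 2.02 to 2.66), and Ccr9, a chemokine receptor gene of gut-homing and thymic lymphocytes, at 30.5 CPM against 13.2 CPM (2.32-fold, 1.59 to 3.41). The others were the histone gene Hist1h2ap (2.17-fold) and Wfdc17, at 7.35 CPM against 3.51 CPM, a ratio of 2.10 whose interval of 0.98 to 4.70 included 1; both were named after their values were seen. In low-sum cells Ccr9 was at 35.7 CPM and Hist1h2ap at 50.4 CPM, against 30.5 and 52.5 CPM in members. Ifng was at 1029 CPM in members against 894 CPM in the 1043 Tyrobp/Ncr1 cells. Gzma was 4.46-fold, Ccl4 4.21-fold, Klra7 4.10-fold and Fcer1g 3.07-fold lower in members. All of these had been lower against the other kept cells too, a contrast that contains the same 1043 cells.

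The Il4 cells were the group most like the members in the 3 genes. Named genes were set side by side, with no count over all genes. Ly6a (224 CPM in members, 423 CPM in Il4 cells), Icos (131 and 226), Ccr2 (136 and 234) and Rora, a nuclear receptor gene (155 and 243), were lower in members. Zbtb16, which encodes PLZF, the transcription factor of innate-like T cells, was at 27.2 CPM in members (21.4 to 34.1) and 44.0 CPM in Il4 cells (28.5 to 65.0), intervals that overlapped. Ccl5 was at 8484 CPM in members and 3747 CPM in Il4 cells, 2.26-fold (2.17 to 2.37). Klre1 was 2.49-fold, Fcer1g 2.43-fold, Ly6c2 2.07-fold and Klf2, a transcription factor gene of recirculating lymphocytes, 2.13-fold higher in members. These ratios were below 2-fold for Klf2, Ly6c2 and Ccl5 when members were restricted to the cluster that held most Il4 cells. Ifng was at 1029 and 1136 CPM.

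With the 19 genes of the rule left out, members were more frequent among the neighbours of members than among all kept cells. Genes that vary with the rule genes stayed in, so this is a description and not evidence of a separate population. Cells were placed by 30 principal components of 2000 variable genes, and the 30 nearest neighbours of each cell were counted. Members made up 29.5% of the neighbours of members, against 11.98% of all kept cells. They made up 36.2% of the neighbours of Il4 cells, 15.5% of those of low-sum cells, 12.8% of those of precursor-gene cells and 7.04% of those of Tyrobp/Ncr1 cells. From the side of the members, 7.60% of neighbours were Il4 cells, which made up 2.37% of kept cells, and 33.9% were Tyrobp/Ncr1 cells, which made up 55.2%.

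Clustering of all kept hepatic cells without the rule genes gave 9 clusters, and the members fell almost entirely into 2 of them. Cluster 2, with 2777 cells and the leading genes Mmp9, Ly6a, Ldhb, Rcbtb2, Ckb and Plac8, held 768 members, 79.4% of all. Cluster 3, with 1133 cells and Gm8369, S1pr1 and Ly6c2 among its leading genes, held 166, or 17.2%. Members were 27.7% (26.0% to 29.4%) of cluster 2 and 14.7% (12.6% to 16.8%) of cluster 3, so neither cluster consisted mainly of them. Cells with at least 2 UMIs of the 3 genes, whether or not they met the upper limits, were 65.2% of cluster 2 and 55.0% of cluster 3. Cluster 1, the largest with 2906 cells, held 11 members. The same clusters divided the neighbouring groups, with 96.9% of Il4 cells in cluster 2 and 91.5% of precursor-gene cells in cluster 3. Of the low-sum cells 47.2% were in cluster 2 and 21.25% in cluster 3. Low-sum cells were also 3.61% of cluster 1, 9.45% of cluster 4 and 30.6% of cluster 5, where members were 0.379%, 0.766% and 3.49%. Leading genes were Klra9 and Ccl4 in cluster 1, Blk and 5830411N06Rik in cluster 4, and Klra6, Klra7, Gzma and Ccl5 in cluster 5. The part of these clusters in the ratios against low-sum cells was not tested. In the members of cluster 2 alone Klf2 was at 1135 CPM, Ly6c2 at 526 CPM and Ccl5 at 6894 CPM, against 710, 322 and 3747 CPM in all Il4 cells.

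**Figure D4:**
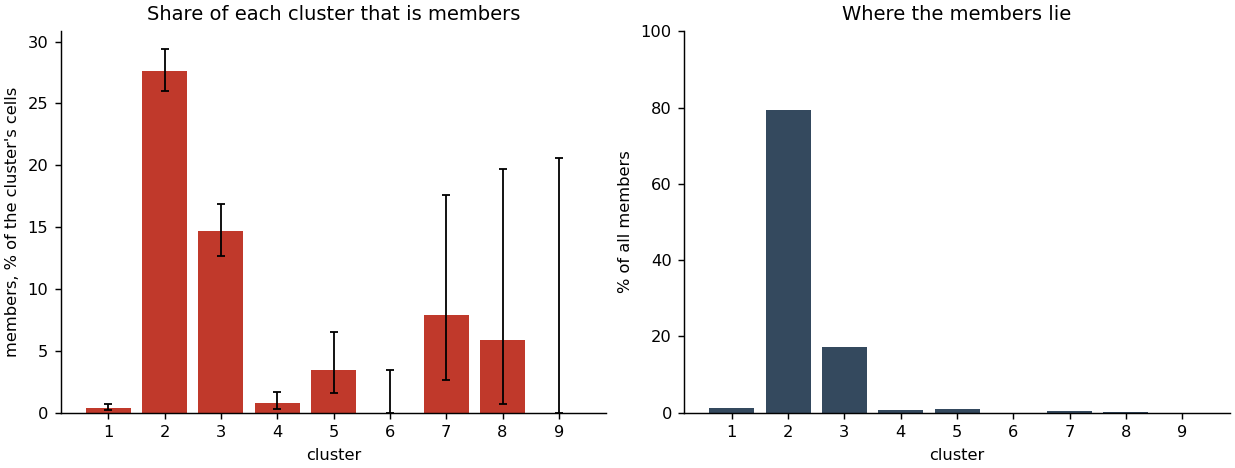
Left, members as a percentage of the cells of each of 9 clusters of hepatic cells (error bars, exact binomial 95% intervals); right, percentage of all members in each cluster. Cluster 2 holds 79.4% and cluster 3 17.2% of the members.

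The members of clusters 2 and 3 were close in Cd28 and far apart in Socs2 and Cd40lg. These clusters were drawn from the same transcripts, so their values are descriptive. Cd28 was at 1059 CPM (1015 to 1103) in the members of cluster 2 and 1157 CPM in those of cluster 3. Socs2 was at 427 CPM and 46.5 CPM, and Cd40lg at 171 CPM and 14.1 CPM. A Socs2 UMI was present in 58.6% of members of cluster 2 and 9.64% of those of cluster 3, and a Cd40lg UMI in 35.9% and 3.61%. In cluster 3 Cd28 was detected in 98.8% of members.

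The marker genes followed the same division. Mmp9 was at 83.8 CPM in members of cluster 2 and gave no UMI in those of cluster 3, which allows up to 6.06 CPM at 3 UMIs. Ly6a was at 275 CPM and 22.2 CPM, Icos at 153 and 38.4, and Ccr2 at 163 and 14.1. Ifng was at 1121 CPM and 650 CPM, and Gimap3 at 818 and 388. Genes of liver-homing lymphocytes were likewise higher in cluster 2, with the chemokine receptor gene Cxcr6 at 677 CPM against 117 CPM and Cxcr3 at 318 against 105. Gzmb was at 1044 CPM against 267 CPM, whereas Ccl5 was at 6894 CPM in cluster 2 and 13476 CPM in cluster 3.

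The members of cluster 3 instead carried genes of recirculating and naive-like T cells. S1pr1, the receptor that guides lymphocytes out of tissues, was at 121 CPM in them and 8.00 CPM in members of cluster 2. Klf2 was at 3084 CPM against 1135 CPM and Ly6c2 at 1220 against 526. Of the precursor genes that the rule held to at most 2 UMIs together, Tcf7 was at 139 CPM in members of cluster 3 and 27.8 CPM in those of cluster 2, and Ccr7 at 52.5 and 1.41 CPM. Lef1 was closer, at 113 and 93.2 CPM. Izumo1r was nearly equal, at 52.5 CPM in cluster 3 and 56.5 CPM in cluster 2, as were Sh2d1a (117 and 126) and Cd27 (271 and 266).

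**Figure D5:**
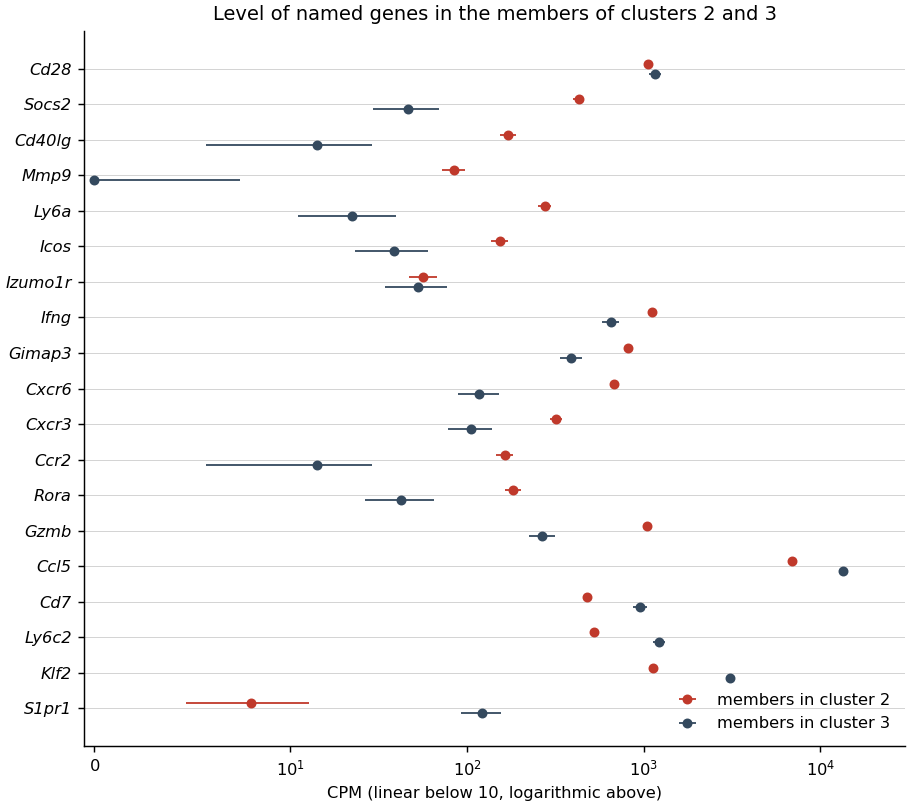
Level in CPM (horizontal axis, linear below 10 and logarithmic above) of 19 genes in the 768 members of cluster 2 (red) and the 166 members of cluster 3 (dark grey-blue), with exact Poisson 95% intervals. Cd28 and Izumo1r are alike in both, Mmp9, Ly6a, Socs2 and Cd40lg are higher in cluster 2, and S1pr1 and Klf2 in cluster 3.

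Members were also split by which of the 3 genes were detected. In the 352 members with Cd28 as the only gene of the 3, Ifng was at 916 CPM, Icos at 96.6, Ly6a at 134 and Mmp9 at 35.5 CPM. In the 116 members with UMIs of all 3 genes, Ifng was at 1162 CPM, Icos at 182, Ly6a at 293 and Mmp9 at 128 CPM. The 286 members with Cd28 and Socs2 alone lay between for Ifng (1077 CPM), Icos (148), Ly6a (288) and Mmp9 (78.2). Cells with more of the 3 genes also had higher sums, so that the sum and the combination cannot be told apart here. The split also followed the clusters, since few members of cluster 3 had Socs2 or Cd40lg and its Mmp9, Ly6a and Icos levels were low.

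In the thymus the same rule took 255 of 4351 kept cells, 5.86% (5.18% to 6.60%), and these were Cd28 cells almost alone. Cd28 was at 1001 CPM (930 to 1074) in them, near its level in hepatic members, while Socs2 was at 21.2 CPM (12.1 to 34.4) and Cd40lg at 27.8 CPM (17.2 to 42.5). Their Ifng was at 31.8 CPM (20.4 to 47.3), against 9.99 CPM in other thymic cells and 1029 CPM in hepatic members. Gimap3 was at 78.1 CPM against 28.5 CPM in other thymic cells, Mmp9 gave no UMI, and Icos was at 84.7 CPM against 33.7 CPM. Izumo1r was at 109 CPM against 87.4 CPM and Zbtb16 at 54.3 against 11.6 CPM. Of the kept thymic cells 3326 were past the precursor limit alone, and 1662 of these had at least 2 UMIs of the 3 genes. The thymic sort alone was preceded by depletion of CD4- and CD8-bearing cells, and with 1 library each, tissue and library cannot be told apart.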

How the data were processed

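Cell Ranger and Seurat (3.0) and the mouse build mm10 are named in the submitters' processing notes, with no version of Cell Ranger. The files deposited by the authors hold UMI counts per gene and barcode of 10x 3′ libraries, not normalized, for 27998 listed genes. The hepatic library held 25040963 UMIs (median 2741 per kept cell, 1328 to 17429) and the thymic library 17371662 (median 3271). Gene positions were read from GENCODE vM21. The members and the gene lists were chosen with earlier results of these data known.

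From the counts, groups of cells were summed and expressed as CPM, with exact Poisson, binomial and conditional binomial 95% intervals (scipy 1.17.1). The confidence level was 95% and the limit that a count of 0 allows was taken at 3 UMIs. No test was made, as each tissue was 1 library. For shares of cells with a UMI, cells were thinned to 1500 UMIs, and cells with fewer were left out (3 low-sum cells and at most 1 in any other group). Genes at 20 CPM or more over all kept hepatic cells, without rule, mitochondrial and ribosomal-protein genes, were compared. The text names the rule genes, the 3 markers, the 15 genes highest and lowest against other kept cells, the 10 highest and lowest against low-sum cells, and genes of the 28 lists (302 of 303 found). Neighbours and clusters were computed in scanpy (1.11.5) from log-normalized counts at resolution 0.6. Interval code was tested on simulated data.

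Scrublet called 5 hepatic barcodes doublets (0.0578%) at its automatic threshold, so its calls were not used. Doublets were left in, and removal of the 600 highest scores was an alternative. Ribosomal UMIs above 50%, found in 13 kept hepatic cells, were no reason for exclusion. Alternatives varied the 3-gene minimum, each of its genes, the cell filters, the depth, the CPM minimum and the number of neighbours. Reads of close paralogs (Klra, Gimap, H2 and Ly6 genes) may be divided between copies. Some listed genes are not reported here.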

Additional observations from a re-analysis of the deposited data

How the results depend on the processing

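Each tissue was 1 library, so the spread between mice is unknown and the intervals cover counting error only. No paired analysis was possible because the labels give no replicate numbers and each tissue has 1 library. Depth limits single-cell detection of rare transcripts such as Cd40lg and Mmp9, and members with few UMIs of the 3 genes are not sharply separated from low-sum cells. Cells 1 UMI past an upper limit are likewise not sharply separated from members. The member share of kept hepatic cells, 11.98%, was 16.0% with a minimum sum of 1 and 8.99% with 3, and 4.32%, 10.0% and 11.1% with Cd28, Socs2 or Cd40lg left out of the sum. The thymic share, 5.86%, was 10.3% and 3.26% with a minimum sum of 1 and 3, 9.92% with the rule applied to cells thinned to 1500 UMIs, and 0.161% without Cd28. The count of genes at least 2-fold higher than in other kept cells, 8, was 18 without Cd28, and 30 and 4 with a minimum of 5 and 50 CPM. The count lower, 73, was 116, 260 and 41 in the same order. Against low-sum cells the count higher, 11, was 20 and 5 with a minimum sum of 1 and 3, 2 with the thinned rule, 4 and 5 with Socs2 or Cd40lg left out, and 84 and 3 with a minimum of 5 and 50 CPM. The count lower, 38, was 74 without Cd28, and 190 and 24 with a minimum of 5 and 50 CPM. Removal of the 600 highest doublet scores left 938 members with 7 genes higher and 76 lower. Members made up 28.7% to 30.3% of the neighbours of members with 15 neighbours, 20 principal components or 3000 variable genes. Of 47 named genes past 2-fold, all 47 kept their direction in the 13 settings tried and 35 stayed past 2-fold in each. Those that did not were Icos, Cd6, Sh2d1a, Gpc1, Rcbtb2, Klre1, Klra3, Cd163l1, Rgs1, S100a4, Anxa2 and Capg.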
